A study of Mus musculus with 12 samples.

Results

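Expression of 8 ion channel genes known from microglia was followed across 12 arrays of cultured mouse microglia. The genes encode the potassium channels Kcna3, Kcnj2, Kcnk6, Kcnk13 and Kcnn4, the proton channel Hvcn1, and the transient receptor potential (TRP) channels Trpv2 and Trpm2. They were chosen by name, with all array probes whose transcript accession RefSeq assigns to them. All 8 were on the array and all 8 were tested, among 20659 named genes on the array and 19802 genes tested. Hvcn1 had 2 probes and each of the other genes had 1.

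The microglia came from mixed glial cultures of C57BL/6 mice on postnatal days 1 to 3 and were shaken off the other glia before use. The study asked how factors released by T helper cells change gene expression in these cells. There were 3 groups of 4 arrays, from experiments numbered 12, 13, 14 and 16. One group received the supernatant of a Th1 culture, made from naive CD4+ T cells of C57BL/6 mice that were polarised and restimulated through CD3 and CD28. A second group received Th17 supernatant, whose preparation the sources used here do not describe. The third group, called untreated in the labels, carries the T cell medium IMDM in its titles, and the study gives T cell medium to its controls. Supernatants and medium were diluted with an equal volume of fresh medium, and the only treatment time in the methods, written there for astrocytes, is 16 h. No allele or transgene was named for any group. Sex of the pups and pooling of brains were not given, and the cells were a postnatal culture outside the brain. Transcript levels were measured, not channel protein or current.

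Microglia, the macrophages of the brain, set their membrane potential largely with potassium channels. Kcnk13 (THIK-1) and Kcnj2 (Kir2.1) pass potassium near rest, Kcna3 (Kv1.3) opens on depolarisation, and Kcnn4 (KCa3.1) opens when intracellular calcium rises. The resulting membrane potential sets the driving force for calcium entry and shapes process movement, phagocytosis and the release of interleukin-1. Hvcn1 lets protons out of cells whose NADPH oxidase is active, and Trpv2 and Trpm2 are cation channels that admit calcium.

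Probes well above background made up 54.49% to 64.99% of the 39429 probes per array. Of 12 microglia markers 11 were found, and all 11 were above background on every array. Their direction was not uniform after Th1 supernatant, since 3 rose and 3 fell, among them the fractalkine receptor Cx3cr1, which fell by 6.31 ± 0.70 on the log2 scale (limma, adjusted p = 2.71e-05). Of 10 astrocyte markers 4 to 8 were above background per array, and Gja1 and Sox9 were so on none. Of 8 T cell markers 5 (Cd3e, Cd4, Cd5, Lck and Cd28) were above background on every array, with Cd4 at a mean level of 12.52 and Cd28 at 11.41 in untreated microglia, and Cd3d, Cd3g and Cd8a were so on none. A gene was called changed at a limma p, adjusted over all 19802 genes, under 0.01 together with a change of more than 2-fold. Changes are log2 fold changes ± SE of a fit over 12 arrays (n = 4 per group), and levels are log2 of the quantile-normalised signal, given in the order of experiments 12, 13, 14 and 16.

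Expression of 2 of the 8 channels, Kcnj2 and Kcnk13, was lower after Th1 supernatant than in untreated microglia, and none was higher. Of all genes tested 7.88% fell and 7.49% rose in this comparison, and the count of 2 was not tested against these shares. Both genes were also lower after Th1 than after Th17 supernatant, where 7.91% of all genes were lower and 6.89% higher with Th1. None of the 8 was called between Th17 and untreated microglia, where 0% of all genes rose and 0% fell. The 2 genes that fell have promoter windows of 300 bases in RefSeq (GRCm38.p6, 250 bases before and 50 after the start), which are printed here because these members moved together. The Kcnj2 window lies at chr11:111065914-111066213 and the Kcnk13 window at chr12:99964249-99964548, both on the plus strand. Capitals mark the PU.1 core GAGGAA and the core of the interferon-stimulated response element GAAANNGAA on either strand.
Kcnj2: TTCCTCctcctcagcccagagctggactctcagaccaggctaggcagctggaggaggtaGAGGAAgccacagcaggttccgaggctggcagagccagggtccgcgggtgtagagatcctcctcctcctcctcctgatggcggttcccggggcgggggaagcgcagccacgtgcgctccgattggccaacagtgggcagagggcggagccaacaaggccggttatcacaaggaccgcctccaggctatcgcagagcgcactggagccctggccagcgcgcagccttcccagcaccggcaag
Kcnk13: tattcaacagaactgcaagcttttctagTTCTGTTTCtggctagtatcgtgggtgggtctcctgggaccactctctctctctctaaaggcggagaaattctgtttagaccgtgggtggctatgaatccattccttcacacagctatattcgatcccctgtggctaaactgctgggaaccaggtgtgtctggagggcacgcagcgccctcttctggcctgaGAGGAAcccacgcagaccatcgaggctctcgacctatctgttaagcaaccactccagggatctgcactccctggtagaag
PU.1 is the transcription factor that defines the myeloid lineage. Its core occurred in 2 places of the Kcnj2 window, at the first bases as the reverse complement TTCCTC and again 191 bases before the start. The Kcnk13 window held 1 PU.1 core, 30 bases before the start, and 1 interferon response core, read on the opposite strand as TTCTGTTTC and beginning 222 bases before the start. The interferon-gamma activated site TTCNNNGAA was found in neither. No motif overlapped another in these windows. Among 32851 RefSeq promoter windows of the same length, 28.3% held the PU.1 core, 8.56% the interferon response core and 8.3% the activated site. Of the 8 members 6 had a window (8 windows in all, 3 of them for Trpv2), and Hvcn1 and Kcnk6 were not among them. The activated site was in none of the 8 windows. The PU.1 core was also present upstream of Kcna3 and Trpv2, which were not called.

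**Figure D1:**
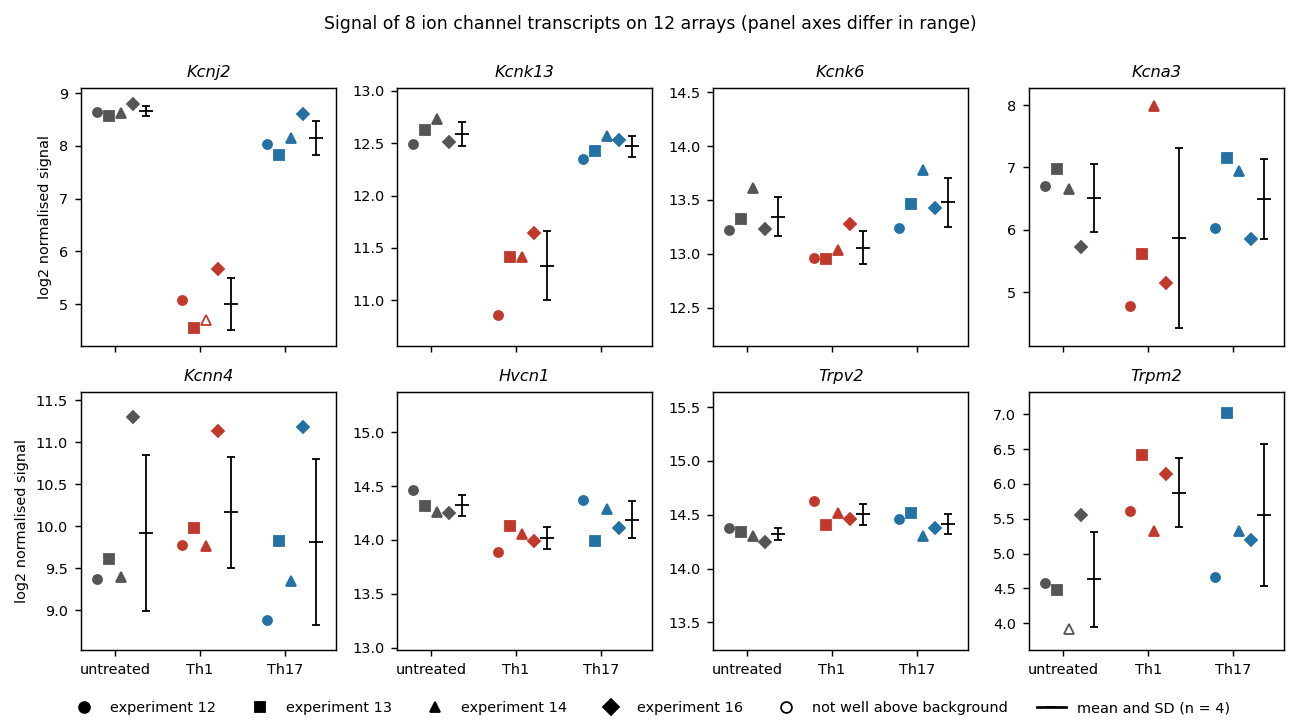
Log2 normalised signal of each channel on 12 arrays, with 1 symbol per experiment and 1 colour per group. Bars give the mean and SD of 4 arrays and open symbols mark arrays not well above background. Kcnj2 and Kcnk13 lie lower on all 4 Th1 arrays than on the 8 others, and Kcnn4 is highest in experiment 16 in each group.

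Kcnj2 encodes the inward rectifier Kir2.1, which clamps cells near the potassium equilibrium potential. Its level was 8.65, 8.57, 8.62 and 8.80 in untreated microglia. After Th1 supernatant it was 5.07, 4.55, 4.70 and 5.66, and the array of experiment 14 was not well above background there. After Th17 supernatant it was 8.03, 7.83, 8.14 and 8.60. Every Th1 value lay below every other value, while the Th17 and untreated groups overlapped. Relative to untreated cells Kcnj2 fell by 3.67 ± 0.23 on the log2 scale, a 12.7-fold lower signal (95% interval 8.95 to 18; adjusted p = 3.92e-07). It was 8.9-fold lower than after Th17 supernatant (6.28 to 12.6; adjusted p = 1.53e-06). The fall from untreated was present in each experiment (log2 difference -3.14 to -4.02) and within slides 1, 2 and 3 (-3.54, -3.99 and -3.14). With the slide as a block it was -3.60 ± 0.15 (adjusted p = 4.45e-07). The size depended on the background correction, since normexp on the median signal gave a log2 fold change of -1.68 (adjusted p = 1.5e-06).

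After Th17 supernatant Kcnj2 gave the lowest unadjusted p of the 8 channels against untreated cells. Its log2 fold change was -0.51 ± 0.23 (95% interval -1.01 to -0.01), with an unadjusted p of 0.0469 and an adjusted p of 1 in limma over 12 arrays. It was lower than untreated in all 4 experiments (-0.62, -0.74, -0.48 and -0.20) and within all 3 slides (-0.58, -0.79 and -0.43). The order of the groups was thus untreated, Th17 and Th1. The first 2 were not called different after the adjustment over all genes. With experiments as blocks their difference was -0.51 ± 0.14 (95% interval -0.84 to -0.19, limma adjusted p = 0.901).

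Kcnk13 encodes THIK-1, a two-pore domain channel that carries the tonic potassium current of microglia. Levels in untreated cells were 12.49, 12.63, 12.73 and 12.51. They were 10.86, 11.41, 11.41 and 11.64 after Th1 supernatant, and 12.35, 12.43, 12.57 and 12.53 after Th17 supernatant. All 4 Th1 values were below the other 8, and untreated and Th17 values overlapped. The fall from untreated was 2.39-fold (1.91 to 3.01), or -1.26 ± 0.15 on the log2 scale (adjusted p = 4.75e-05). It was seen in each experiment (-1.63, -1.22, -1.32 and -0.87) and within each slide (-1.70, -1.32 and -0.87), and blocking by slide gave -1.32 ± 0.13 (adjusted p = 5.02e-05). Against Th17 supernatant Kcnk13 was 2.21-fold lower (-1.14 ± 0.15, adjusted p = 0.000108). This second call was lost without Th1 12, the lowest array, where the log2 fold change of -0.99 was just under 2-fold (adjusted p = 8.34e-05). P2ry12, the ADP receptor through which released nucleotides enhance THIK-1 current, moved in the opposite direction and rose by 1.61 ± 0.22 after Th1 supernatant (adjusted p = 0.000134).

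Markers of other cell types and states were read beside both genes, and their lists differed in direction after Th1 supernatant. All 5 markers of dividing cells (Mki67, Top2a, Ccnb1, Ccnb2 and Cdk1) fell after Th1 supernatant, with log2 fold changes of -1.87 to -2.80, and their summed signal was 3085 to 8350 on Th1 arrays, 17664 to 40107 on untreated and 27856 to 41727 on Th17 arrays. The 10 astrocyte markers summed to 4230 to 5825 on Th1, 4991 to 12061 on untreated and 4158 to 11941 on Th17 arrays. The 6 endothelial markers, 3 to 5 of them above background, summed to 13254 to 20199 on Th1, 2813 to 7248 on untreated and 2186 to 5656 on Th17 arrays. Vwf alone was called (3.79 ± 0.54, adjusted p = 0.000181), while Tek was above background on no array. Sums of 3 further lists were lower on all Th1 than on all untreated arrays. They were 7485 to 8658 against 9844 to 11240 for 8 T cell markers (6563 to 11104 on Th17 arrays), 4273 to 5629 against 6145 to 16301 for 7 neuron markers (5915 to 10868), and 4063 to 7606 against 8293 to 10624 for 5 monocyte and granulocyte markers (5928 to 11196). The members of these lists did not all fall. Of 5 T cell markers tested 1 was called higher and 2 lower after Th1 supernatant (log2 fold changes -5.28 to 2.35). Of 5 neuron markers tested 1 was higher and 1 lower (-2.44 to 1.78). Of 3 monocyte and granulocyte markers tested 0 were higher and 1 lower (-1.15 to 0.48). Syt1 among the neuron markers and Mpo among the monocyte and granulocyte markers were above background on no array. The 10 oligodendrocyte lineage markers summed to 14439 to 21049 on Th1, 16336 to 32761 on untreated and 15387 to 20664 on Th17 arrays, and the 8 fibroblast and mural markers to 2527 to 4221, 2038 to 3997 and 2194 to 3063. Their part in the fall of Kcnj2 and Kcnk13 was not tested. In such cultures fewer cells of a type and less RNA per cell cannot be told apart.

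The remaining potassium channels were not called in any comparison. Kcnk6 encodes TWIK2, a two-pore channel linked to potassium efflux in macrophages. It stood at 13.22, 13.32, 13.61 and 13.23 in untreated, 12.96, 12.95, 13.04 and 13.28 in Th1 and 13.24, 13.46, 13.78 and 13.43 in Th17 microglia. The groups overlapped. Th1 differed from untreated by -0.28 ± 0.14 (95% interval -0.59 to 0.02, adjusted p = 0.117) and from Th17 by -0.42 ± 0.14 (-0.72 to -0.11, adjusted p = 0.0297). The Th1 value was lower than the Th17 value in all 4 experiments, by -0.14 to -0.73, and within slides by -0.28 to -0.46, but the difference stayed under 2-fold and above the adjusted threshold.

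Kcna3 encodes the voltage-gated Kv1.3. Its levels were 6.70, 6.97, 6.66 and 5.72 in untreated microglia, 4.77, 5.61, 7.98 and 5.14 after Th1 supernatant, and 6.03, 7.15, 6.94 and 5.85 after Th17 supernatant. The Th1 array of experiment 14 was the highest of all 12 and the other 3 Th1 arrays were the lowest of their experiments. The difference between Th1 and untreated, -0.64 ± 0.61 (-1.98 to 0.70, adjusted p = 0.423), changed sign between experiments, with -1.93, -1.36, 1.32 and -0.58 across experiments and -2.07, 0.13 and -0.58 within slides. Without the 3 arrays of experiment 14 it was -1.29 (adjusted p = 0.0441). By mean log2 signal, experiment 14 was also highest in each group for the 10 astrocyte markers. Values were 7.25, 7.03 and 6.99 for untreated, Th1 and Th17, against 6.19 to 6.68 on the other 9 arrays. The same held for the oligodendrocyte lineage markers (8.81, 8.20 and 8.51) and the neuron markers (6.89, 6.55 and 6.64). Summed signal of the astrocyte markers was instead highest in experiment 16, at 12061, 5825 and 11941, against 9016, 4529 and 7571 in experiment 14. The part of these markers in the Kcna3 values was not tested. Th17 differed from untreated by -0.02 ± 0.61 (-1.36 to 1.32).

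Kcnn4 encodes KCa3.1, which is gated by calmodulin and carries the calcium-activated potassium current. Levels were 9.37, 9.61, 9.40 and 11.30 in untreated, 9.78, 9.98, 9.76 and 11.14 in Th1 and 8.89, 9.83, 9.35 and 11.18 in Th17 microglia. Experiment 16 was highest in each group, above the next array by 1.70, 1.16 and 1.34 on the log2 scale, so that the experiments differed more than the treatments. Only 26 of 19740 genes (0.132%) lay over 2-fold above the next array in experiment 16 in all 3 groups. The mean log2 signal of the monocyte and granulocyte markers was 7.87, 7.30 and 7.32 in experiment 16 and 6.60 to 7.05 elsewhere. Their summed signal was highest in experiment 16 for Th1 only (7606). In untreated and Th17 microglia experiment 12 was highest, at 10624 and 11196 against 10544 and 10918 in experiment 16. The 5 dividing cell markers were highest in experiment 16 in each group by both measures. For untreated, Th1 and Th17 they summed to 40107, 8350 and 41727, with mean log2 signals of 12.74, 10.63 and 12.77. Microglia marker sums were lowest in experiment 16 for untreated (1265710) and Th17 (1276788). For Th1 they were lowest in experiment 12 (1167397, against 1185168 in experiment 16). The part of these markers in the Kcnn4 values was not tested. Th1 differed from untreated by 0.25 ± 0.55 (-0.96 to 1.45, adjusted p = 0.744). With experiments as blocks the same difference had an SE of 0.15 (-0.10 to 0.59, adjusted p = 0.2). Within slides it was 0.29, 0.47 and -0.16. Th17 differed from untreated by -0.11 ± 0.55 (-1.32 to 1.10, adjusted p = 1).

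**Figure D2:**
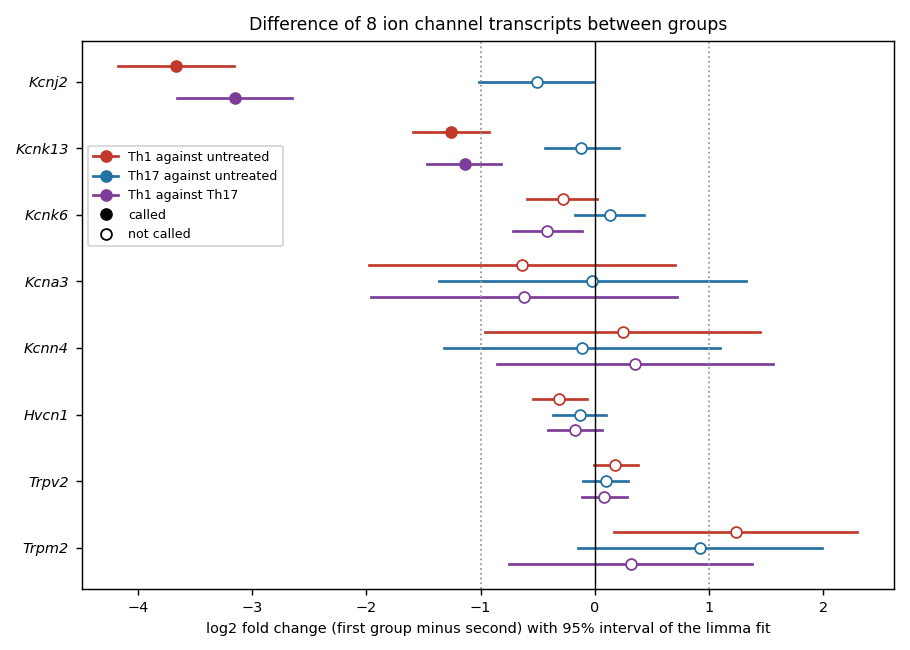
Log2 fold change of each channel in 3 comparisons, with the 95% interval of the limma fit over 12 arrays. Filled points were called, open points were not, and dotted lines mark a 2-fold change. Kcnj2 (-3.67 and -3.15) and Kcnk13 (-1.26 and -1.14) are the called points, and the intervals of Kcna3 and Kcnn4 are wide.

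Hvcn1, the voltage-gated proton channel Hv1, was bright on all arrays. Its used probe read 14.46, 14.32, 14.26 and 14.25 in untreated, 13.89, 14.13, 14.06 and 13.99 in Th1 and 14.37, 13.99, 14.29 and 14.11 in Th17 microglia. Th1 and untreated values did not overlap, and their difference was -0.31 ± 0.11 (95% interval -0.54 to -0.07, adjusted p = 0.038), which did not meet the threshold. It was negative in each experiment (-0.58, -0.19, -0.20 and -0.26) and within slides (-0.51, -0.17 and -0.26). The second probe, to the same transcript accession, gave a difference of -0.19 (adjusted p = 0.214) with overlapping groups, and scaling to the 75th percentile without quantile normalisation gave -0.05 at the used probe. Th17 differed from untreated by -0.13 ± 0.11 (-0.37 to 0.10, adjusted p = 1).

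Trpv2, a calcium-permeable channel that macrophages use in phagocytosis, read 14.38, 14.34, 14.30 and 14.25 in untreated, 14.63, 14.40, 14.52 and 14.46 in Th1 and 14.46, 14.52, 14.30 and 14.38 in Th17 microglia. The lowest Th1 value was just above the highest untreated value. The difference was 0.18 ± 0.09 (-0.01 to 0.38, adjusted p = 0.115) and positive in each experiment (0.25, 0.06, 0.22 and 0.20) and slide (0.27, 0.16 and 0.20). The 75th percentile scaling gave 0.45 (adjusted p = 0.00306), still under 2-fold. For Th17 against untreated it was 0.10 ± 0.09 (-0.10 to 0.29, adjusted p = 1).

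Trpm2 encodes a cation channel opened by ADP-ribose under oxidative stress, and its probe was dim. It read 4.58, 4.48, 3.91 and 5.55 in untreated microglia, where experiment 14 was not above background and sat at the floor, 5.61, 6.42, 5.32 and 6.14 after Th1 supernatant, and 4.66, 7.02, 5.32 and 5.20 after Th17 supernatant. Th1 was above untreated in each experiment (1.02, 1.93, 1.41 and 0.59) and within slides (1.07, 1.96 and 0.59), although untreated 16 exceeded Th1 14. The difference of 1.24 ± 0.49 (0.17 to 2.30) had an adjusted p of 0.0577 in limma, or 0.0282 with experiments as blocks, and was not called in either fit. It shrank to 0.32 with a floor of 50 and to 0.29 with normexp. Th17 against untreated ranged more widely, with 0.08, 2.54, 1.41 and -0.35 across experiments and a difference of 0.92 ± 0.49 (-0.15 to 1.99, adjusted p = 1). Within slides it was 0.13, 3.11 and -0.29.

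**Figure D3:**
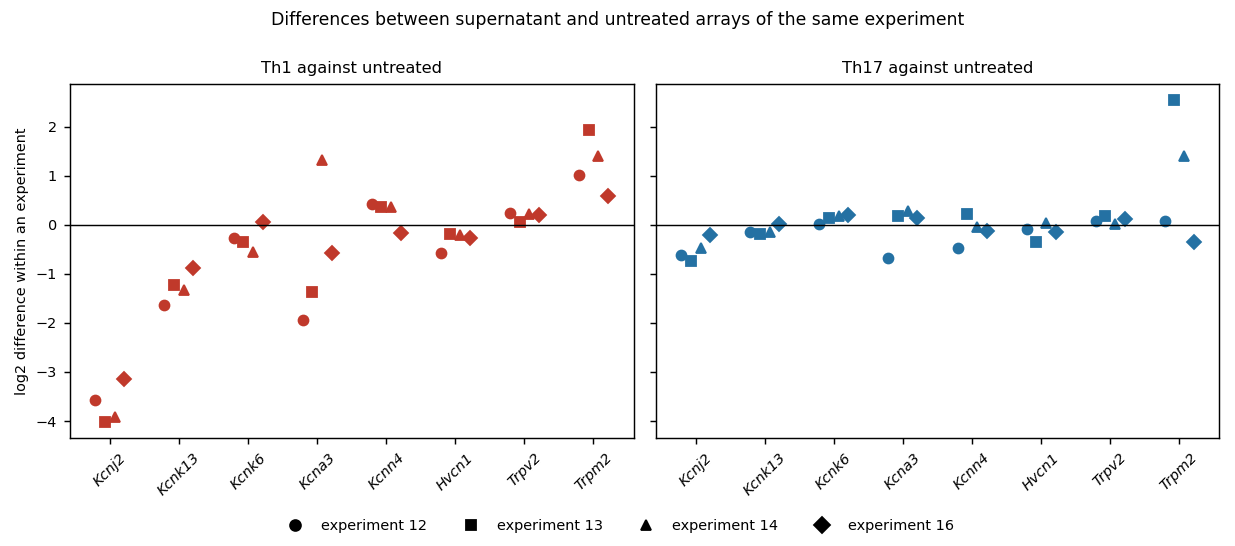
Log2 difference between supernatant and untreated arrays of the same experiment, for Th1 on the left and Th17 on the right, with 1 symbol per experiment. Kcnj2 and Kcnk13 are negative in all 4 experiments with Th1 supernatant, and Kcna3 and Trpm2 spread most.

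Other genes of potassium handling were followed as lists. Beside the counts of these and the later lists, 7.49% of all genes rose and 7.88% fell after Th1 supernatant. No list count was tested against these shares. Of 72 other pore-forming potassium channel subunits on the array 22 passed the filter on dim probes and were tested, and after Th1 supernatant 2 rose and 1 fell (median of the 22, 0.17 against -0.06 for all genes). Kcnma1, the large-conductance BK channel, was above background on all 4 untreated arrays and on no Th1 array. By the bound of the main processing it was at least 13.1-fold lower (adjusted p = 6.41e-08). Kcng4, a modulatory voltage-gated subunit, exceeded background on 4 Th1 arrays but on none of the untreated ones. By the same bound Kcng4 was at least 7.54-fold higher (adjusted p = 4.99e-08). Kcnn3, a small-conductance relative of Kcnn4, rose by 1.33 ± 0.10 (adjusted p = 2.32e-06). The calls of Kcng4 and Kcnn3 were lost with normexp, at log2 fold changes of 0.82 and 0.52, and the bound of Kcng4 does not hold there. Kcnj16, an inward rectifier, was called lower with experiments as blocks (-1.62, adjusted p = 0.0168 without and 0.00479 with blocks). It was also called in the deposited value table (-3.06), with no floor (-2.95), with only the 8 arrays compared and without Th17 13. It was above background on no Th1 array and, by the bound of the main processing, at least 2.01-fold lower. Of 7 tested auxiliary subunits none was called (median -0.41), though the block fit called Kcne3 lower (-1.99, adjusted p = 0.0234 without and 0.00969 with blocks, 2 of 4 Th1 arrays above background), as did the fit without untreated 14 (-2.46).

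Expression of other TRP channels was lower where it was called. Of 13 tested genes 2 fell after Th1 supernatant and none rose (median -0.42), beside 7.88% and 7.49% of all genes. These were Pkd2, which encodes polycystin-2, at -1.13 ± 0.15 (adjusted p = 0.000134) and Trpm7, a channel with a kinase domain that passes magnesium, at -1.06 ± 0.13 (adjusted p = 7.36e-05). Both lay close to the 2-fold threshold, which both missed with normexp, and Pkd2 also missed it without Th1 12 (-0.98). The 75th percentile scaling called 1 gene higher and 3 lower. Trpc4 was called lower in the block fit (-1.21, adjusted p = 0.0962 without and 0.00486 with blocks), without untreated 14 (-1.78) and without the 3 arrays of experiment 14 (-1.58).

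The largest changes among channel genes were in chloride and volume-regulated channels. Of 19 tested 3 rose and 1 fell after Th1 supernatant (median -0.18), beside 7.49% and 7.88% of all genes. Clic5, a chloride intracellular channel protein, was above background on all 4 Th1 arrays and on none of the untreated arrays. By the bound of the main processing it was at least 134-fold higher (adjusted p = 8.23e-10). Lrrc8c, a subunit of the volume-regulated anion channel, rose by 5.15 ± 0.20 (adjusted p = 7.7e-09), while the obligatory subunit Lrrc8a differed by 0.02 ± 0.14. Clcn7, the lysosomal chloride-proton exchanger, rose by 1.60 ± 0.24 (adjusted p = 0.000239), and its endosomal relative Clcn3 fell by 1.44 ± 0.20 (adjusted p = 0.00017).

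Of 16 calcium entry and release channels tested 2 were higher and 2 lower (median 0.14), beside 7.49% and 7.88% of all genes. Itpr1, an inositol trisphosphate receptor of the endoplasmic reticulum, rose by 3.24 ± 0.29 (adjusted p = 5.36e-06). Tpcn1, a lysosomal two-pore channel, fell by 2.12 ± 0.19 (adjusted p = 5.45e-06). P2rx5, an ATP-gated channel, rose by 1.89 ± 0.24 (adjusted p = 7.91e-05), with only 1 of 4 untreated arrays above background, and was not called with normexp (0.32) or a floor of 50 (0.39). Mcu, the mitochondrial calcium uniporter, fell by 1.34 ± 0.34 (adjusted p = 0.00834), with 1 of 4 Th1 arrays above background. Its call was lost with normexp (-0.26), under a floor of 50 (-0.30), without a floor, with no filter, with only the 8 arrays compared, and with any of 8 single arrays left out (adjusted p up to 0.028).

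Of 16 ion pumps and exchangers tested 4 were called lower and none higher (median -0.21), beside 7.88% and 7.49% of all genes. The sodium-potassium-chloride cotransporter Slc12a2 (NKCC1) fell by 2.32 ± 0.27 (adjusted p = 4.14e-05). Slc4a7, a sodium-bicarbonate cotransporter, fell by 1.40 ± 0.23 (adjusted p = 0.000458), and Atp2b1, a calcium pump of the plasma membrane, by 1.26 ± 0.14 (adjusted p = 2.74e-05). The 75th percentile scaling called 2 genes of this list higher, Atp1b3 (1.26) and Slc12a7 (1.06).

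**Figure D4:**
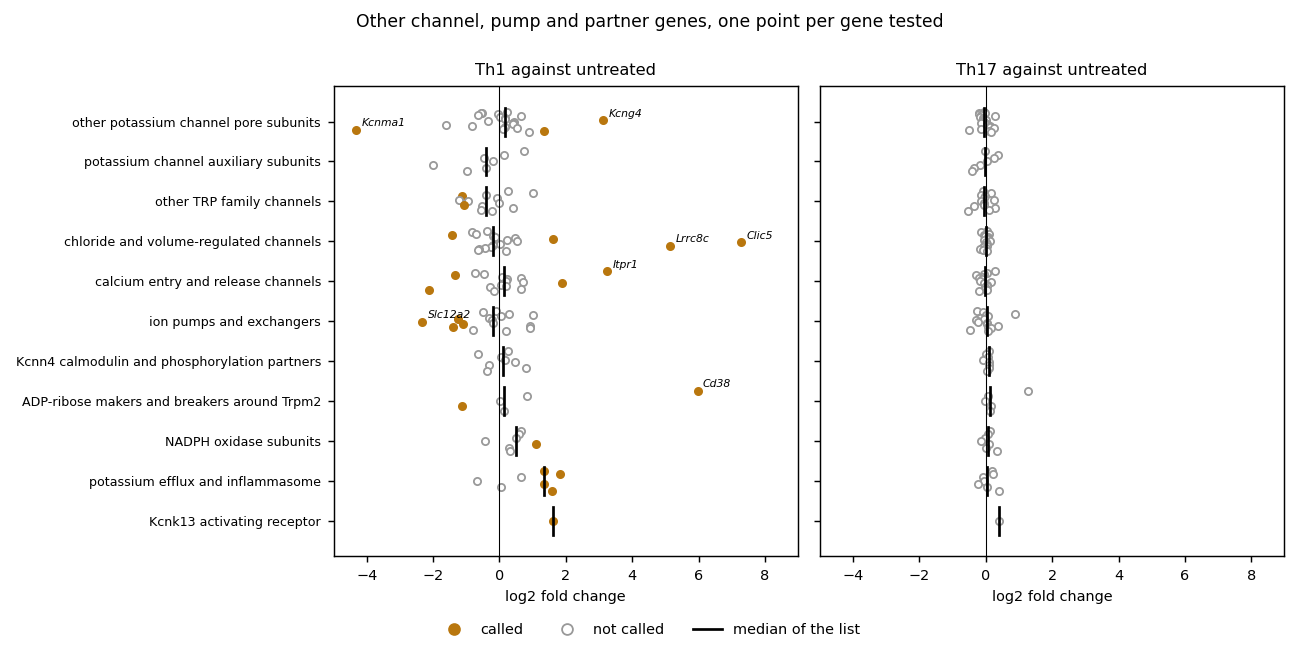
Log2 fold change of each tested gene of the other lists, with Th1 against untreated on the left and Th17 against untreated on the right. Filled points were called and vertical bars give the list median. Clic5 (7.28), Cd38 (5.97), Lrrc8c (5.15) and Kcnma1 (-4.31) lie farthest from 0 with Th1 supernatant, and no point is filled with Th17 supernatant. Values of genes above background on no array of a plotted group (Clic5, Kcng4, Kcnma1, Kcnj16, Kcnmb4, Trpv1 and Ttyh1 on the left, Clic5, Kcng4 and P2rx5 on the right) are fitted values and not bounds.

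Partners of single members were also read. Of 8 calmodulin and phosphorylation partners of Kcnn4 none was called after Th1 supernatant (range -0.66 to 0.81). Among 5 genes that make or break down ADP-ribose, the ligand of Trpm2, Cd38, an ectoenzyme that makes ADP-ribose from NAD, rose by 5.97 ± 0.28 (adjusted p = 4.95e-08). Parp1, the main poly(ADP-ribose) polymerase, fell by 1.13 ± 0.22 (adjusted p = 0.00155), and by 0.99, short of a call, without Th1 14. Of 7 NADPH oxidase genes, whose product needs the charge compensation that Hvcn1 gives, only Ncf4 (p40phox) rose, by 1.10 ± 0.14 (adjusted p = 8.27e-05), and by 0.97 without Th1 12, which was not called. The other 6 lay between -0.44 and 0.64.

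Genes of the inflammasome, which potassium efflux triggers, rose in part. Of 7 genes 4 were higher after Th1 supernatant and none lower (median 1.33), beside 7.49% and 7.88% of all genes. The pore-forming Gsdmd rose by 1.82 ± 0.14 (adjusted p = 2.17e-06), the adaptor Pycard by 1.59 ± 0.18 (adjusted p = 3.68e-05), the protease Casp1 by 1.34 ± 0.12 (adjusted p = 6.3e-06) and the sensor Nlrp3 by 1.33 ± 0.19 (adjusted p = 0.000164). P2rx7, the ATP-gated channel that starts the efflux, differed by 0.04 ± 0.13, and Il1b, which encodes interleukin-1 beta, by 0.65 ± 1.56.

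With Th17 supernatant none of the 8 channels and none of the listed genes was called by limma. Across all 19802 genes 325 had an unadjusted p under 0.05 in the main fit, which does not use the pairing of arrays by experiment. This is a smaller share than chance alone would give. The count of called genes was 0, and the smallest adjusted p was 0.603. The count remained 0 under all alternatives tried, the fit with experiments as blocks included. The intervals of the 8 channels against untreated bound the differences most closely for Trpv2 (-0.10 to 0.29), Hvcn1 (-0.37 to 0.10), Kcnk6 (-0.17 to 0.43) and Kcnk13 (-0.44 to 0.21), which leave out a 2-fold change. Those of Kcna3, Kcnn4, Trpm2 and Kcnj2 include one. With experiments as blocks the intervals of Kcnj2 (-0.84 to -0.19, adjusted p = 0.901) and Kcnn4 (-0.45 to 0.24) leave it out too, and those of Kcna3 (-1.08 to 1.04) and Trpm2 (0.00 to 1.84) do not.

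The transcripts most like the 2 called channels over the 12 arrays were found by the root mean square difference of mean-centred log2 values. For Kcnj2 they were Adssl1, an adenylosuccinate synthase, at 0.27 and Cd276, a surface protein of the B7 family, at 0.32. Adssl1 differed by -3.96 ± 0.31 and Cd276 by -3.51 ± 0.33 between Th1 and untreated microglia. For Kcnk13 they were Xpot, a tRNA exporter, and Pkd2 from the TRP list, both at 0.11. Xpot differed by -1.31 ± 0.14. These genes were chosen for their likeness, so the values are a description.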

How the data were processed

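Per the file headers, the authors scanned one-colour Cy3 arrays (4 per slide, 3 slides) with Agilent Feature Extraction 10.7.3.1, and the deposited scanner files hold linear intensity values. A deposited value table holds log2 values that matched the scaled signal centred on each probe's median (r of at least 0.99999 per array), which left its scale, centring and direction known from this match alone, and was an alternative only. Control spots and 103 to 230 outlier spots per array were left out, and no spot was saturated. After the study's methods, spots of a probe were averaged geometrically, quantile normalised, scaled to a 75th percentile of 1500, floored at 15 and log2 transformed. Probes well above background on at least 4 of 12 arrays were kept (24287). Accessions were named through RefSeq (GRCm38.p6, 69.07% of probes), and the brightest kept probe stood for a gene. Comparisons used limma (version 3.58.1, R version 4.3.3) over 12 arrays with Benjamini-Hochberg adjustment. The procedure was tested on simulated data drawn independently for each array, which cannot show how it behaves with arrays paired by experiment. A gene above background on no array of a group has a bound, the brighter mean against the higher of its own signal and the lowest signal above background per array. This bound belongs to the main processing and is not a detection limit of the probe. Another background correction can give a smaller change. Experiment numbers come from the titles, and the study describes 4 independent experiments. Deviations of arrays with the same number correlated at 0.24 to 0.63 over all 12 pairs and others at -0.42 to 0.12, so the numbers were taken to pair the arrays. The main fit had no block, so its p-values do not use this pairing, and the fits with experiments as blocks were alternatives. P-values measure the spread between these experiments, and the number of arrays limits precision. Members and lists were chosen with earlier results of these data known. Named were all members, at most 3 called genes per list and comparison by size, and 2 genes nearest in profile to each called member. Clcn3, Lrrc8a, Mcu, Slc12a7, Atp1b3, Nlrp3, P2rx7, Il1b, Kcnj16, Kcne3, Trpc4, Kcnmb4, Trpv1 and Ttyh1 were named after their values were seen, and 1 called gene of the ion pumps and exchangers is not reported here. Alternatives were another scaling, floor, filter and background correction, probe-level fits, blocks, and left-out arrays.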

Additional observations from a re-analysis of the deposited data

Results flagged for a closer look

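Kcnn4 stood apart on arrays of experiment 16. In untreated microglia its log2 signal was 11.30 there and 9.37 to 9.61 on the other 3 arrays, a gap of 0.875 of the group's range, past Dixon's 95% limit for 4 samples. After Th1 supernatant it was 11.14 against 9.76 to 9.98, a gap of 0.839 of the range. These were the 2 flags among 27 groups of 4 arrays checked, and chance flags about 1 in 20 such groups. In Th17 microglia Kcnn4 did not pass the limit. Across all genes with values on every array, 4 of 19740 passed it in experiment 16 in all 3 groups, and Kcnn4 was not among them.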

How the results depend on the processing

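The falls of Kcnj2 and Kcnk13 from untreated kept their calls under every alternative run. With experiments as blocks, Kcnj2 was -3.67 (adjusted p = 6.41e-07) and Kcnk13 -1.26 (adjusted p = 4.79e-05), and the block changed no call of the 8 channels. Leaving out 1 array at a time gave -3.89 to -3.52 for Kcnj2 and -1.36 to -1.10 for Kcnk13. The number of channels called stayed at 2 for Th1 against untreated and at 0 for Th17 against untreated, and ranged from 1 to 2 for Th1 against Th17, the lower value without Th1 12. Over all genes, 3044 were called for Th1 against untreated (2764 to 3232 with 1 array left out) and 2931 for Th1 against Th17 (2631 to 3132). Normexp on the median signal called 2004 and 1922, and the adjusted p alone called 5957 and 5784. In the refits, signs turned only for differences that were not called. For Th17 against untreated, Kcna3 was 0.03 with the slide as a block and -0.29 to 0.19 with arrays left out, and Kcnn4 was -0.56 to 0.35. For Th1 against Th17, Hvcn1 was 0.10 with the 75th percentile scaling and 0.10 in the deposited value table, and Trpm2 was -0.03 with a floor of 50. For Th1 against untreated, Kcnn4 ranged from -0.08 to 0.71 with arrays left out. Scaling moved the median of all genes by at most 0.05, but single bright genes moved more. For Th1 against untreated the 75th percentile scaling took Atp1b3 from 1.00 to 1.26, and it shifted Hvcn1 and Trpv2 as given above. The mean signal named in the plan was not among the columns used here, so normexp ran on the median signal. Leaving out experiments 14 or 16 was added after seeing the data and called the same number of channels. Dim probes limit Kcna3 and Trpm2. The cause of these changes was not tested.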
